A study of Homo sapiens with 12 samples.

Results

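The mRNA of 10 lysosomal genes was followed in the human liver cancer cell lines Huh7 and Hep3B, both established from hepatocellular carcinoma. The genes were 8 cathepsins (CTSL, CTSB, CTSD, CTSA, CTSC, CTSH, CTSS and CTSZ) and the lysosomal membrane proteins LAMP1 and LAMP2. They were listed by name, with earlier results of these data known. All 10 were found in both deposited tables of 62703 genes, 1 row each, and all 10 passed the filter on low counts in both lines. In each line a control group (shNC) was set against a knockdown group (shSLC6A8) whose short hairpin RNA targets SLC6A8, the creatine transporter gene, with 3 libraries in each of the 4 groups. Every group had 24 hours of hypoxia, so hairpins and lines could be compared but oxygen levels could not. The labels do not say whether a knockdown line was 1 clone or a pool, how many hairpin sequences were used, or whether replicates were separate cultures. P-values therefore reflect only how much these libraries vary, and that variation may be technical.

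Cathepsins are proteases that work mainly in the acid interior of the lysosome. Most are made as inactive precursors in the endoplasmic reticulum, tagged with mannose 6-phosphate in the Golgi, carried to the lysosome and cut there to the active form. CTSL, CTSB, CTSC, CTSH, CTSS and CTSZ are cysteine proteases, CTSD is an aspartic protease and CTSA is a serine carboxypeptidase. LAMP1 and LAMP2 are heavily glycosylated proteins that line the lysosomal membrane, and 1 splice form of LAMP2 is the receptor of chaperone-mediated autophagy. Many lysosomal genes carry E-boxes that TFEB and TFE3, transcription factors held in check by the nutrient-sensing kinase complex mTORC1, can bind. The deposited values are per gene, so splice forms of LAMP2 were not separated.

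The sequences before the gene starts are shown because they differ between members in a motif tied to lysosomal genes. RefSeq promoter sequences (GRCh38.p14) were at hand for 7 members, CTSL, CTSD, CTSA, CTSC, CTSH, CTSZ and LAMP1, and the 250 bases before each start were searched on both strands. Capitals mark the E-box core CACGTG and the antioxidant element core TGACNNNGC, on either strand. In LAMP1 the first capital run is an antioxidant core that overlaps an E-box core.
CTSL promoter (chr9:87725869-87726118, + strand): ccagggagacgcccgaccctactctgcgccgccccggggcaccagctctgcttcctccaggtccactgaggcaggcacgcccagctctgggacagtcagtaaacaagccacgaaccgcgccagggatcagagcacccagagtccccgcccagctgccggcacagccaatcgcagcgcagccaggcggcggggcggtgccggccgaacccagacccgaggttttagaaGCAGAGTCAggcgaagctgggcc
CTSD promoter (chr11:1763928-1764177, - strand): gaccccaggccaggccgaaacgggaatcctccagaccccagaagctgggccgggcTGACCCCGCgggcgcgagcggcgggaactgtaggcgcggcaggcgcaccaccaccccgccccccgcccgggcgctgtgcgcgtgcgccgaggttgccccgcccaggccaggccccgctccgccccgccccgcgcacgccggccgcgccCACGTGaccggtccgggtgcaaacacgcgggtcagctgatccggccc
CTSA promoter (chr20:45891085-45891334, + strand): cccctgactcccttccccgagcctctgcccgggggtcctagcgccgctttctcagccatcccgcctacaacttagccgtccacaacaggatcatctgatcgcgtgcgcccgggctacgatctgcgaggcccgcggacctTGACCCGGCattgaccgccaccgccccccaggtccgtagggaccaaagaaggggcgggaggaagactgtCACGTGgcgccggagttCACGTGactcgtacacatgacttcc
CTSC promoter (chr11:88337737-88337986, - strand): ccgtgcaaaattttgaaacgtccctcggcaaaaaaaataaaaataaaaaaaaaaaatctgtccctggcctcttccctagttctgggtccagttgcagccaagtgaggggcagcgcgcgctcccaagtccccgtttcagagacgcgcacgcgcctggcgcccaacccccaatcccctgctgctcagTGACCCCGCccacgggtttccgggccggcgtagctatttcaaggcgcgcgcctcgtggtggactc
LAMP1 promoter (chr13:113296989-113297238, + strand): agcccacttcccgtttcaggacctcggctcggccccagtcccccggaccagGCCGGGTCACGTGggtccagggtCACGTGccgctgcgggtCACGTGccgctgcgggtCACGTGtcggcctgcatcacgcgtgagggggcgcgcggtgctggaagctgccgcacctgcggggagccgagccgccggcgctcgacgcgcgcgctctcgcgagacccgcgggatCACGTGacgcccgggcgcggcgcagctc

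The E-box core was in 3 of the 7 member windows, against 6.31% of 34788 windows of the same length over all RefSeq genes of the table. LAMP1 held 5 copies, CTSA 2 and CTSD 1, while CTSL, CTSC, CTSH and CTSZ held none. In LAMP1, 4 of the copies lay in a row from 192 to 142 bases before the start, each preceded by the bases GGGT, and the fifth lay 28 bases before it. The longer form TCACGTG was in the same 3 windows and in 3.29% of all windows. The full palindrome of the CLEAR element, the motif named for lysosomal promoters, was in none of the 7 and in 0.308% of all windows. The antioxidant core was in 6 of the 7 windows, all but CTSH, against 10.9% of all windows, and in CTSL it lay 23 bases before the start. The core ACGTG of hypoxia response elements was in 3 windows, against 18.5% of all, and each of its matches lay inside an E-box. The bases G and C made up 58.4% (CTSC) to 81.2% (CTSZ) of the member windows. The windows over all genes were not matched to them in base content or gene type. The shares are thus given for scale, and no test of enrichment was made. A match is a string of letters and does not show that a factor binds there.

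**Figure D1:**
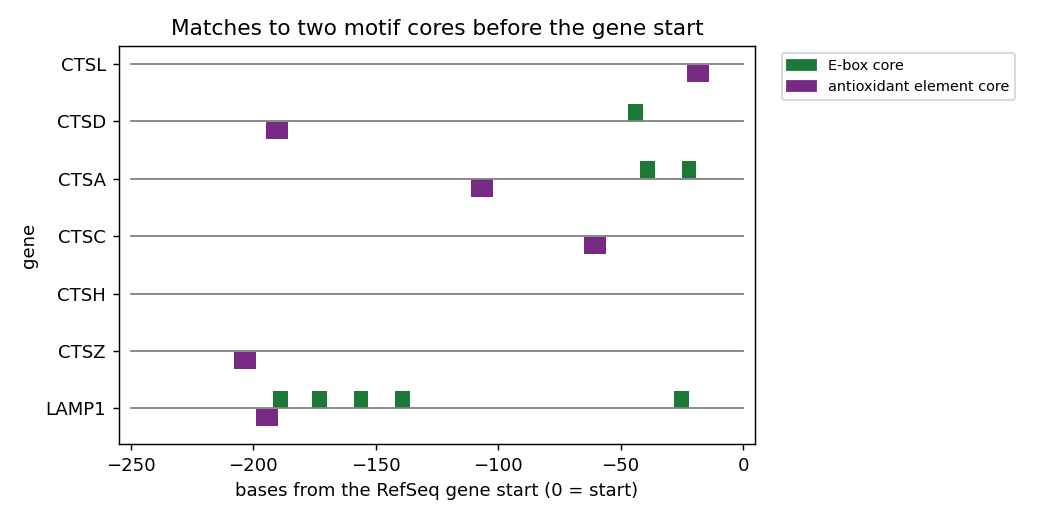
Matches of the E-box core (green, above the line) and of the antioxidant element core (purple, below the line) in the 250 bases before the start of 7 genes, on a scale of bases from the start. LAMP1 has 5 E-boxes, CTSA 2 and CTSD 1; the other 4 genes have none.

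In GRCh38.p14 the members lie on 8 chromosomes. CTSL is on chromosome 9 (87726119 to 87731469), CTSD on chromosome 11 (1752755 to 1763927) and CTSC on the same chromosome (88293592 to 88337736). CTSA and CTSZ are both on chromosome 20 (45891335 to 45898820 and 58995185 to 59007254). CTSH is on chromosome 15 (78921058 to 78945046), CTSS on chromosome 1 (150730188 to 150765778), LAMP1 on chromosome 13 (113297239 to 113323672) and LAMP2 on chromosome X (120426148 to 120469349). CTSB is on chromosome 8. CTSA shares 201 bases with PLTP, the phospholipid transfer protein gene, which had 231 to 1490 estimated counts per library. The sources used here do not give the strand setting of the counting, so reads from those bases cannot be assigned with certainty. The same holds for CTSD, which shares 2139 bases with the long noncoding RNA gene PRADX, for which no row was matched by symbol. CTSL has a close relative, CTSV, with 541 to 1257 estimated counts per library, and several pseudogenes. The pseudogene locus with the most counts, a CTSLP2 locus (ENSG00000290874), had 14 to 26 in the Huh7 knockdown libraries and at most 3 in any other library.

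Library totals ran from 21065965 to 28078068 estimated counts. The target gene SLC6A8 was lower in all knockdown libraries, at 35.6 to 36.9 CPM in Huh7 controls against 8.60 to 11.02, and at 362 to 378 in Hep3B controls against 33.9 to 35.1. CPM, counts scaled to a fixed library size, are further scaled by TMM within a line, which takes most genes to be unchanged. Both lines carried hepatocyte genes, with summed CPM of 7 markers such as ALB and AFP from 11000 to 11500 and from 15400 to 15700 in the Huh7 control and knockdown libraries. In Hep3B those sums ran from 19400 to 20400 and from 12800 to 13600. Most of each Hep3B sum was ALB, at 14550 ± 424 CPM in controls and 9928 ± 419 CPM after knockdown. Under TMM the Hep3B markers went both ways: ALB, SERPINA1 and APOB fell, AFP and TTR rose, and APOA1 and HNF4A did not pass. In Huh7 6 of the 7 rose and 0 fell. Macrophages are rich in CTSS, and the summed CPM of 6 macrophage markers was 14 to 16.8 and 10 to 11.7 in the Huh7 control and knockdown libraries and 10.9 to 13.7 over those of Hep3B. In each group 3 or 4 of the 6 macrophage markers averaged under 1 CPM, and TYROBP had no count in any Hep3B library. The macrophage markers went both ways in Huh7, where ITGAM fell from 11.6 ± 1.71 to 4.88 ± 0.27 CPM and CD14 rose from 2.37 ± 0.25 to 4.51 ± 0.51 CPM. The fibroblast list of 4 genes summed to 18.3 to 19.3 and 13.3 to 14.3 CPM in the Huh7 groups and to 10.4 to 10.9 and 2.03 to 3.14 CPM in those of Hep3B. The part of these differences in the results below was not tested. In bulk RNA, fewer cells of a kind and less RNA per cell cannot be told apart.

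Levels of different genes were compared as TPM, which are scaled for transcript length and depth. CTSD led in every group, with TPM of 810 ± 28.9 in Huh7 controls and 900 ± 6.23 in Hep3B controls (mean ± SD, n = 3 here and below). CTSS was last in every group, at 7.71 ± 0.40 and 21.5 ± 0.98 TPM. The order between them differed by line. In Huh7 controls CTSL came second (348 ± 3.53 TPM), followed by CTSB (190 ± 2.54 TPM) and then by CTSZ, CTSA and CTSC. These last 3 lay between 133 and 143 TPM, and the ranges of CTSZ and CTSA, and of CTSA and CTSC, overlapped. LAMP1 (95.9 ± 3.74 TPM), LAMP2 (47.6 ± 3.83 TPM) and CTSH (27.9 ± 1.17 TPM) followed with separate ranges.

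In Hep3B controls LAMP1 came second (414 ± 9.54 TPM) and CTSZ, a carboxypeptidase also called cathepsin X, came next (384 ± 9.32 TPM). CTSC, CTSA and CTSB followed at 238 ± 2.84, 176 ± 4.94 and 112 ± 2.19 TPM, each apart from its neighbours. CTSH, LAMP2 and CTSL made up a low group, at 37.3 ± 0.74, 35.7 ± 4.30 and 33.7 ± 0.68 TPM. In that group the range of LAMP2 overlapped both its neighbours. CTSL was thus at rank 2 of 10 in one line and at rank 9 in the other. After knockdown it was at rank 7 in both, at 94.9 ± 2.24 TPM in Huh7, below LAMP1 (111 ± 2.01 TPM), and at 41.3 ± 1.42 TPM in Hep3B, where its range overlapped that of LAMP2. CTSC was at rank 2 in the Huh7 knockdown libraries (223 ± 2.94 TPM).

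The question of the control comparison was which members differ in level between the hypoxic lines before any knockdown. Counts of all 12 libraries were fitted together, and 10 of 10 members passed an adjusted p of 0.05 by edgeR, 7 higher and 3 lower in Hep3B, where 81.2% of all 18570 genes tested passed, 39.9% as higher and 41.3% as lower. CTSL, a broad endopeptidase, was 9.86-fold lower in Hep3B (log2 difference -3.30 ± 0.06, edgeR adjusted p = 5.47e-18). LAMP1 was 3.22-fold higher (1.69 ± 0.04, adjusted p = 1.01e-15) and CTSZ 2.53-fold higher (1.34 ± 0.06, adjusted p = 7.28e-13). The other members with log2 differences above 0 were CTSS (0.91), CTSC (0.78), CTSH (0.43), CTSA (0.35) and CTSD (0.18), and CTSB and LAMP2 were at -0.67 and -0.42. The call of CTSD was lost without Huh7 shNC replicate 3 (0.13, adjusted p = 0.0589 by edgeR). Each line had a table of its own, so line and table cannot be told apart.

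In Huh7 the knockdown libraries held less of some cathepsin mRNAs and more of others. CTSL, CTSD, CTSB and CTSA fell, CTSC, CTSH and CTSS rose, and LAMP2 fell slightly. In all, 8 of 10 members passed an adjusted p of 0.05 by edgeR, 3 higher and 5 lower, where 61.8% of 17022 genes tested passed, 30.9% as higher and 31% as lower. The same 8 had knockdown libraries that did not overlap the controls, against 66.6% of all genes, 33.5% higher and 33.1% lower. No test of the members as a group was made. The members' median log2 change was -0.075, against 0.001 over all genes tested.

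CTSL stood at 378, 408 and 378 CPM in the Huh7 control libraries and at 93.0, 91.6 and 92.5 CPM in the knockdown libraries. The groups lay far apart and the knockdown libraries were nearly level with each other. The log2 change was -2.07 ± 0.05 (SE), 4.20-fold lower (edgeR adjusted p = 2.18e-15). It was the 1 member that the authors' deposited table marked as significant in either line, with a log2 fold change of -2.06 there. That mark does not follow the adjusted p alone, since CTSD, at -0.998 and an adjusted p of 2.43e-79 in the authors' deposited table, is not marked.

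CTSD, the aspartic protease, stood at 1049, 1152 and 1010 CPM in the Huh7 controls and at 549, 505 and 547 CPM in the knockdown libraries. It fell 2.01-fold (log2 change -1.0 ± 0.05, edgeR adjusted p = 6.89e-11). CTSB, a cysteine protease that also cuts dipeptides from chain ends, went from 327, 338 and 318 CPM to 213, 208 and 212 CPM. No library of one group reached the other, and the log2 change was -0.63 ± 0.05 (edgeR adjusted p = 2.06e-09). CTSA, which also protects lysosomal beta-galactosidase and neuraminidase, went from 220, 224 and 203 CPM to 170, 165 and 173 CPM. That was a smaller fall, of 0.35 on the log2 scale (SE 0.05, edgeR adjusted p = 9.79e-06).

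CTSC, the dipeptidyl peptidase that activates granule serine proteases in immune cells, stood at 179, 186 and 183 CPM in the Huh7 controls and at 272, 264 and 274 CPM after knockdown. The knockdown libraries were all higher, and CTSC rose by 0.57 on the log2 scale (SE 0.04, edgeR adjusted p = 8.12e-09). CTSH, an aminopeptidase, went from 32.3, 36.3 and 32.9 CPM to 45.1, 45.7 and 43.9 CPM (0.41 ± 0.06, edgeR adjusted p = 3.16e-05). CTSS, the cathepsin best known from antigen presentation, was the lowest member, at 11.9, 13.8 and 12.4 CPM against 15.6, 18.2 and 16.1 CPM. Its rise of 0.39 on the log2 scale (SE 0.09) also passed (edgeR adjusted p = 0.00171) and rested on 265 to 530 counts per library.

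Of the remaining Huh7 members, CTSZ was at 151 to 162 CPM in the controls and 151 to 162 CPM after knockdown (-0.02 ± 0.05, edgeR adjusted p = 0.785). LAMP1 was at 204 to 210 and 204 to 214 CPM (0.01 ± 0.04, edgeR adjusted p = 0.847). The CPM groups overlapped for both genes. The authors' TPM were higher after knockdown with no overlap, for CTSZ (140.3 ± 2.60 against 158.3 ± 6.43) and LAMP1 (95.9 ± 3.74 against 111 ± 2.01). LAMP2 stood at 144, 144 and 157 CPM against 132, 138 and 135 CPM, a change of -0.13 ± 0.05 (edgeR adjusted p = 0.0288). The groups came close, and the LAMP2 call was lost without Huh7 shNC replicate 3 (-0.09, adjusted p = 0.157) and without shSLC6A8 replicate 1 (-0.11, adjusted p = 0.137), replicate 2 (-0.14, adjusted p = 0.0665) or replicate 3 (-0.12, adjusted p = 0.107). With library totals in place of TMM, which moved the median of all Huh7 genes from 0.001 to 0.105, LAMP2 was at -0.03 (adjusted p = 0.644) and LAMP1 passed as higher at 0.12 (adjusted p = 0.03).

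**Figure D2:**
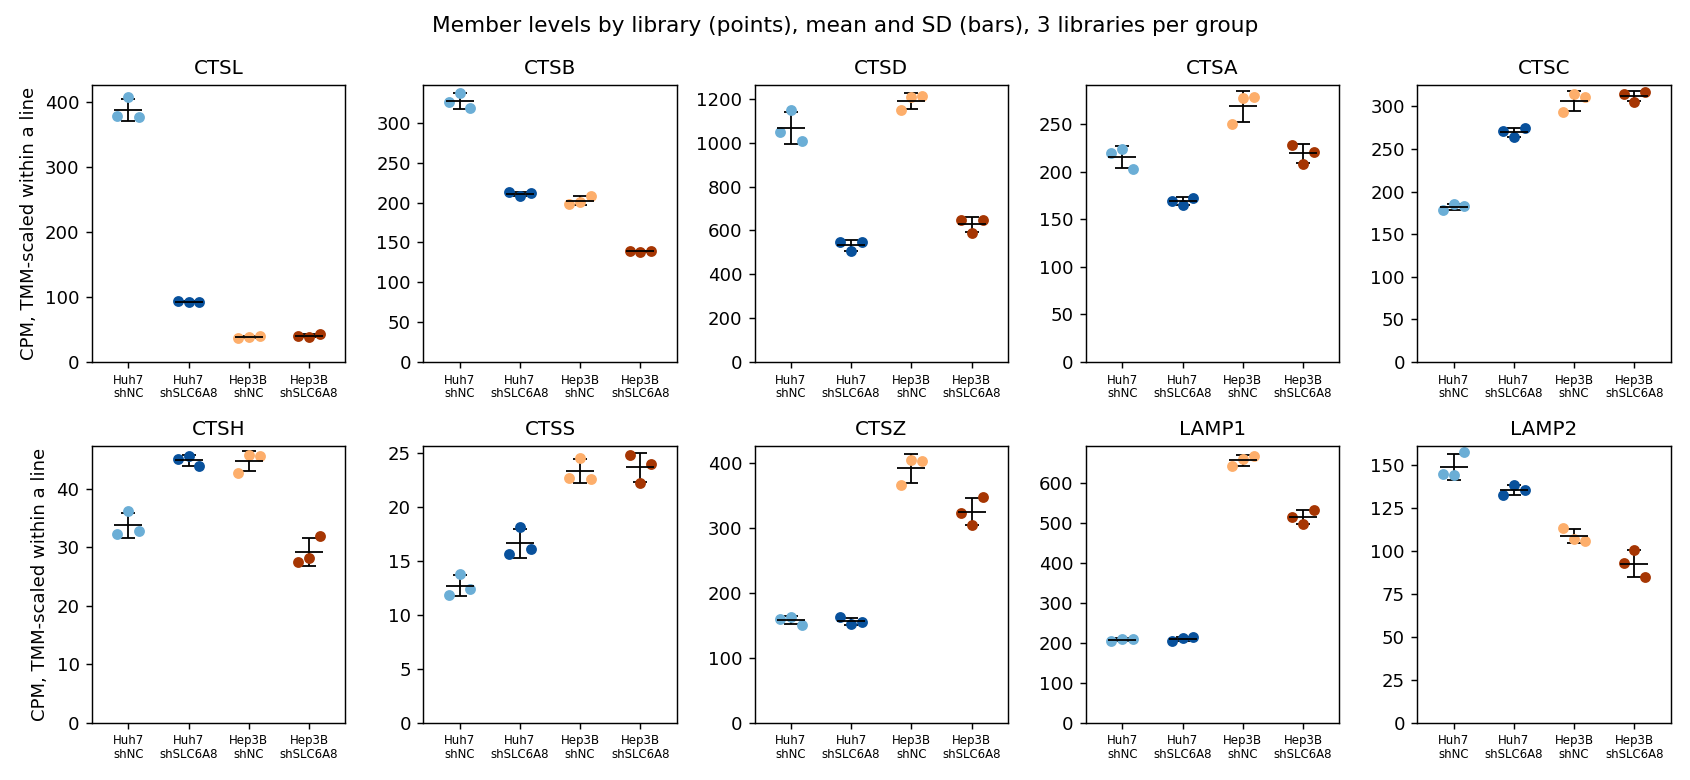
CPM (scaled by TMM within a line, axes from 0) of each member in the 12 libraries, with points for libraries and bars for the mean and SD of 3 libraries. CTSL fell from 378 to 408 CPM down to 91.6 to 93.0 CPM in Huh7 and lay between 36.7 and 42.7 CPM in every Hep3B library; CPM are not scaled across lines.

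In Hep3B the knockdown changes ran in one direction under TMM scaling: CTSD, CTSH, CTSB, LAMP1, CTSA, CTSZ and LAMP2 fell, and CTSL, CTSC and CTSS did not pass. With library totals, CTSD, CTSH, CTSB and LAMP1 kept their call as lower, and CTSL, CTSC and CTSS passed as higher. Under TMM 7 of 10 members passed an adjusted p of 0.05 by edgeR, all lower, where 40.1% of 16181 genes passed, 21.2% as lower and 18.9% as higher. The same 7 had groups that did not overlap, against 51.1% of all genes, 25.9% lower and 25.2% higher. The members' median log2 change was -0.282, against 0.013 over all genes; library totals moved the median of all genes to 0.203 and the share of all calls that were higher from 47.2% to 76.2%. With library totals 3 members passed as higher and 4 as lower, with a median of -0.091.

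CTSD stood at 1148, 1209 and 1215 CPM in the Hep3B controls and at 646, 590 and 648 CPM in the knockdown libraries. The groups were far apart, with a log2 change of -0.92 ± 0.06, 1.90-fold lower (edgeR adjusted p = 1.08e-06). CTSB went from 198, 201 and 209 CPM to 139, 137 and 140 CPM (-0.55 ± 0.04, edgeR adjusted p = 7.79e-06). CTSH went from 42.8, 45.8 and 45.6 CPM to 27.6, 28.1 and 32.0 CPM. Every knockdown library was lower than every control for CTSB and CTSH, and CTSH fell by 0.61 on the log2 scale (SE 0.07, edgeR adjusted p = 0.000124).

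LAMP1 stood at 642, 661 and 667 CPM in the Hep3B controls and at 515, 497 and 533 CPM after knockdown. It fell by 0.35 on the log2 scale (SE 0.05, edgeR adjusted p = 0.000298), and the groups were separate. CTSA went from 250, 278 and 279 CPM to 229, 208 and 221 CPM (-0.30 ± 0.06, edgeR adjusted p = 0.00288). CTSZ went from 366, 404 and 403 CPM to 323, 305 and 347 CPM (-0.27 ± 0.06, edgeR adjusted p = 0.00714). Hep3B shNC replicate 1 was the lowest control for LAMP1, CTSA and CTSZ, and also for CTSL, CTSB, CTSD, CTSC and CTSH. With library totals CTSA and CTSZ no longer passed, at -0.10 (adjusted p = 0.127) and -0.08 (adjusted p = 0.261). Their TPM also overlapped, at 176.5 ± 4.94 against 166.4 ± 4.94 for CTSA and 384 ± 9.32 against 371 ± 8.67 for CTSZ.

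LAMP2 stood at 113, 107 and 106 CPM in the Hep3B controls and at 92.5, 100 and 84.7 CPM after knockdown, a change of -0.23 ± 0.07 (edgeR adjusted p = 0.019). With library totals it did not pass (-0.04, adjusted p = 0.681). Nor did it pass when the fit left out Hep3B shNC replicate 1 (-0.20, adjusted p = 0.0592) or replicate 2 (-0.24, adjusted p = 0.052), and the same held for shSLC6A8 replicate 1 (-0.23, adjusted p = 0.0655) or replicate 3 (-0.17, adjusted p = 0.0533). LAMP2 was thus the member with the least firm call in both lines. Its TPM overlapped between the groups and were not lower on average, at 47.6 ± 3.83 against 48.5 ± 1.69 in Huh7. In Hep3B they were 35.7 ± 4.30 against 37.6 ± 4.05.

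The members that did not pass in Hep3B were CTSL, at 36.7, 38.9 and 40.03 CPM against 39.2, 38.4 and 42.7 CPM, CTSC, at 293 to 314 against 305 to 317 CPM, and CTSS, at 22.6 to 24.6 against 22.2 to 24.8 CPM. Their groups overlapped, and their log2 changes were 0.06 ± 0.07, 0.03 ± 0.05 and 0.02 ± 0.08 (edgeR adjusted p = 0.545, 0.675 and 0.833). With library totals, which moved the median of all Hep3B genes by 0.19, they passed as higher, CTSL at 0.25 (adjusted p = 0.00923), CTSC at 0.22 (adjusted p = 0.00215) and CTSS at 0.21 (adjusted p = 0.0362). The median of all Hep3B genes was 0.203 under that scaling. The authors' TPM were higher for CTSL (33.7 ± 0.68 against 41.3 ± 1.42) and CTSC (238 ± 2.84 against 282 ± 3.80), with no overlap. Those of CTSS overlapped (21.5 ± 0.98 against 22.9 ± 2.18). TPM come from the same reads and sum to nearly the same total per library, so they are no independent check on library totals. In the authors' deposited table, for which the sources used here name neither tool nor scaling, their log2 fold changes were 0.05, 0.02 and 0.02.

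**Figure D3:**
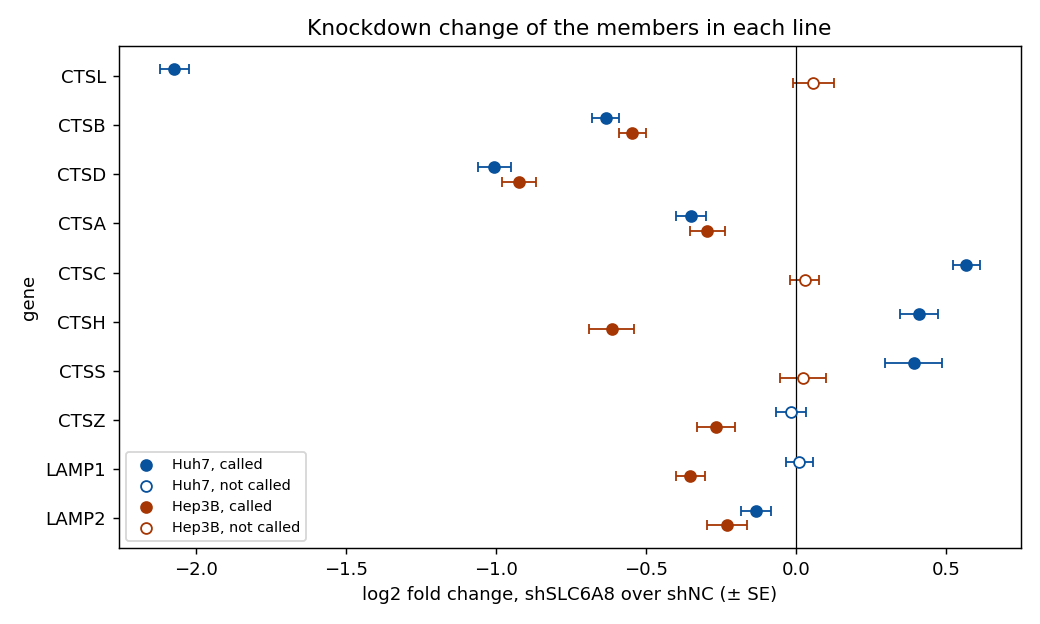
Log2 fold change of shSLC6A8 over shNC for each member, ± SE from the edgeR fit of 6 libraries per line, with filled points for an adjusted p under 0.05 and TMM scaling. CTSD, CTSB and CTSA lie at like values in both lines, CTSL at -2.07 and 0.06, and CTSH at 0.41 and -0.61.

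Whether the knockdown response differed between lines was tested as an interaction in the fit of all 12 libraries. It passed for 6 of 10 members by edgeR, where 47.1% of 18570 genes passed. CTSL had the largest difference among the members, 2.13 ± 0.08 on the log2 scale (Hep3B minus Huh7, edgeR adjusted p = 1.17e-12). CTSH moved in opposite directions, higher in Huh7 and lower in Hep3B, with a difference of -1.02 ± 0.10 (edgeR adjusted p = 1.91e-07). CTSC differed by -0.53 ± 0.06 (edgeR adjusted p = 1.63e-06) and LAMP1 by -0.36 ± 0.06 (edgeR adjusted p = 0.000104). These 4 kept their calls in every alternative tried.

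CTSS and CTSZ also passed, at -0.36 ± 0.12 (edgeR adjusted p = 0.0209) and -0.25 ± 0.08 (edgeR adjusted p = 0.0178), but less firmly. CTSS was lost without Huh7 shNC replicate 1 (-0.32, adjusted p = 0.0605), Huh7 shSLC6A8 replicate 2 (-0.30, adjusted p = 0.0647) or Hep3B shNC replicate 2 (-0.32, adjusted p = 0.0595). CTSZ was lost without Huh7 shNC replicate 3 (-0.21, adjusted p = 0.0529), Huh7 shSLC6A8 replicate 1 (-0.22, adjusted p = 0.0503) or Hep3B shNC replicate 2 (-0.22, adjusted p = 0.0504). With library totals CTSS was at -0.28 (adjusted p = 0.0602) and CTSZ at -0.17 (adjusted p = 0.0606), and neither passed. For CTSB, CTSD, CTSA and LAMP2 the differences were 0.09 ± 0.06, 0.09 ± 0.08, 0.06 ± 0.08 and -0.09 ± 0.08 and did not pass (edgeR adjusted p = 0.21, 0.411, 0.567 and 0.39), which leaves differences of that size undecided. CTSB passed with library totals, at 0.17 (adjusted p = 0.0107).

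The make-up of the cathepsin transcripts followed from these levels. The summed TPM of the 8 cathepsins was 1795 ± 24.0 in Huh7 controls and 1262 ± 34.4 after knockdown, and 1903 ± 11.9 and 1557 ± 9.71 in Hep3B. With 3 libraries against 3, an exact test of such a sum cannot reach the 0.05 threshold, and none was run. CTSL made up 19.4% ± 0.31 of the sum in Huh7 controls and 7.52% ± 0.10 after knockdown, against 1.77% ± 0.05 and 2.65% ± 0.11 in Hep3B. CTSC took 7.49% ± 0.24 and then 17.7% ± 0.30 in Huh7, and 12.5% ± 0.07 and then 18.1% ± 0.25 in Hep3B. Its TPM share was thus higher after knockdown in both lines. The share of CTSD was lower after knockdown in both, at 45.1% ± 1.01 and 36.9% ± 0.81 in Huh7 and 47.3% ± 0.49 and 35.7% ± 0.35 in Hep3B. Shares add to a whole, so one member's fall raises the others. The ratio of LAMP1 to LAMP2 TPM was 2.02 ± 0.09 and 2.29 ± 0.06 in Huh7 and 11.7 ± 1.08 and 9.87 ± 0.86 in Hep3B.

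**Figure D4:**
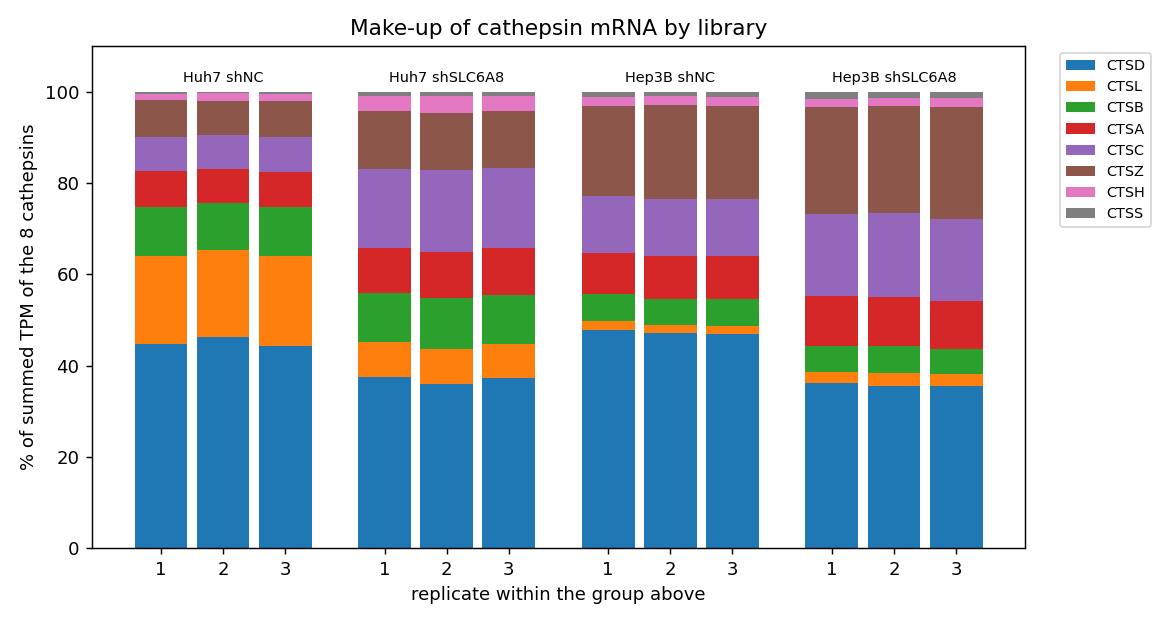
Share of each cathepsin in the summed TPM of the 8 cathepsins, as stacked bars of percent for each of the 12 libraries. CTSL takes 19.4% in Huh7 controls, 7.52% in Huh7 knockdown libraries and under 3% in every Hep3B library, and CTSD takes the largest share in all.

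The other genes of the lysosome were taken from 8 lists with 101 genes, of which 92 were tested in each line. In Huh7 24 rose and 45 fell, with a median log2 change of -0.179, and in Hep3B 14 rose and 37 fell, with a median of -0.134. With library totals those counts became 30 and 35 in Huh7 and 32 and 20 in Hep3B, with medians of -0.075 and 0.057. Library totals move all genes alike: the medians of all genes became 0.105 in Huh7 and 0.203 in Hep3B, and higher calls went from 49.9% to 59.7% of all calls in Huh7 and from 47.2% to 76.2% in Hep3B. The medians of the lists together were thus below those of all genes under both scalings, and no test of that difference was made. The TMM counts of each list below can be read against all genes tested. Under TMM 30.9% of these rose and 31% fell in Huh7, and 18.9% rose and 21.2% fell in Hep3B. These shares do not serve for counts with library totals, which carry the shift of all calls toward higher given above.

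Of 5 other cathepsins tested, 3 rose and 0 fell in Huh7 and 4 rose and 0 fell in Hep3B (3 and 0, and 5 and 0, with library totals). CTSF, a cysteine protease, rose by 0.43 (SE 0.07) and 1.15 (SE 0.10) on the log2 scale. CTSO rose by 0.93 (SE 0.25) in Huh7. CTSE, an aspartic protease, had 3 to 8 counts per library in Hep3B controls and 39 to 47 after knockdown. It passed the low-count filter in Hep3B only through the knockdown libraries, so its call there rests on the same rise. The Hep3B counts of other cathepsins that rose include it. Among cysteine protease inhibitors, CSTB (cystatin B) fell by 0.71 in Hep3B and by 0.18 in Huh7, where it did not pass with library totals (-0.07, adjusted p = 0.306). CST3 (cystatin C, which is secreted) fell by 0.40 in Huh7 and rose by 0.30 in Hep3B. LGMN, the asparaginyl endopeptidase that cuts several cathepsins into their chains, fell in Huh7 from 70.7 ± 1.86 to 46.1 ± 0.90 CPM and was at 35.3 ± 0.32 and 35.7 ± 1.62 CPM in Hep3B (higher with library totals, 0.21, adjusted p = 0.0168).

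Of 16 genes of the V-ATPase, the proton pump that acidifies the lysosome, 12 fell and 1 rose in Huh7, with a median of -0.429 (9 and 1 with library totals, median -0.324). ATP6V0A1, a membrane subunit, fell from 207 ± 7.65 to 70.5 ± 4.57 CPM and ATP6V0B from 177 ± 8.08 to 86.0 ± 5.61 CPM. In Hep3B 5 V-ATPase genes fell and 3 rose under TMM, with a median of -0.067, while with library totals 0 fell and 6 rose, with a median of 0.123, below the 0.203 of all genes under that scaling. Of 28 other hydrolases and activators, 12 fell and 10 rose in Huh7 (9 and 13 with library totals) and 15 fell and 2 rose in Hep3B (9 and 8 with library totals). GLA, the alpha-galactosidase, fell in Huh7 from 278 ± 18.8 to 58.3 ± 1.25 CPM (-2.25 ± 0.06) and was at 14.2 ± 1.78 and 17.2 ± 2.04 CPM in Hep3B (higher with library totals, 0.46, adjusted p = 0.00731). PSAP, the saposin precursor, fell by 0.91 in Huh7, while NAGLU and GM2A, a heparan sulfate glycosidase and the GM2 activator protein, rose by 1.11 and 0.73. In Hep3B PPT1, a palmitoyl thioesterase, and MANBA, the beta-mannosidase, fell by 0.63 and 0.65. IDUA and SGSH, both heparan sulfate-degrading enzymes, rose there by 0.55 and 0.25.

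CD68, a membrane protein of the LAMP family, fell in both lines, from 37.4 ± 1.38 to 15.8 ± 0.46 CPM in Huh7 and from 66.2 ± 1.87 to 23.4 ± 0.57 CPM in Hep3B. SCARB2, the membrane receptor that carries glucocerebrosidase, rose by 0.68 in Huh7 and fell by 0.39 in Hep3B. Of 12 other membrane proteins tested, 5 fell and 4 rose in Huh7 (5 and 5 with library totals), and 5 fell and 3 rose in Hep3B (3 and 5). Of 9 genes of delivery to the lysosome, 4 fell and 2 rose in Huh7 and 4 fell and 1 rose in Hep3B (2 and 2, and 2 and 1, with library totals). SORT1, the sorting receptor sortilin, rose by 1.43 in Huh7 and fell by 0.59 in Hep3B. GNPTAB, the enzyme that starts the mannose 6-phosphate tag, rose by 1.09 in Huh7. Of 13 genes of the TFEB family and nutrient sensing, 8 fell and 2 rose in Huh7 and 6 fell and 0 rose in Hep3B (7 and 3, and 4 and 2, with library totals). TFE3 fell from 210 ± 5.21 to 92.8 ± 5.54 CPM in Huh7, and RRAGD, a GTPase that ties mTORC1 to TFEB, fell by 0.82 in Hep3B. FLCN, the folliculin gene, fell by 0.73 in Huh7 and by 0.48 in Hep3B. Of 6 peptidases 2 rose and 2 fell in Huh7, and 0 rose and 1 fell in Hep3B (2 and 2, and 4 and 1, with library totals).

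**Figure D5:**
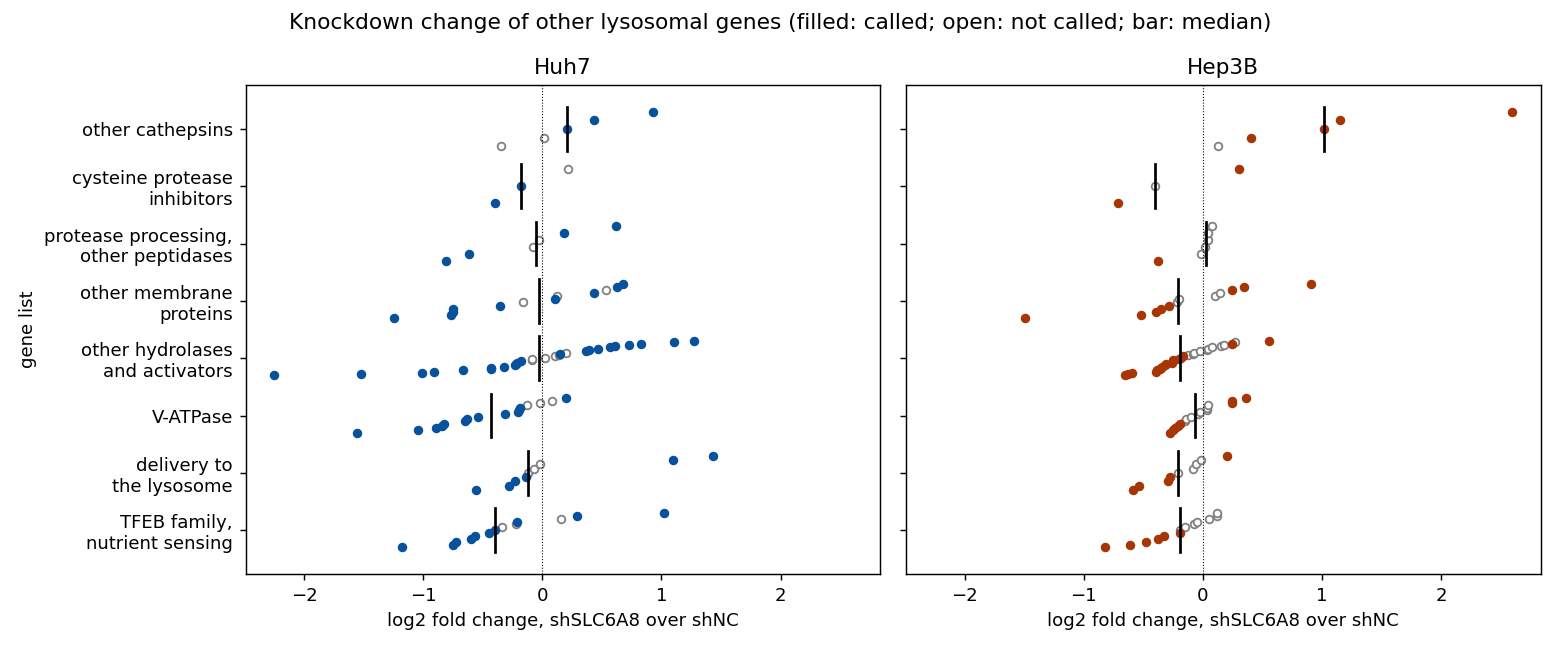
Log2 fold change of shSLC6A8 over shNC for the tested genes of 8 lysosomal lists in Huh7 (left) and Hep3B (right), with filled points for an edgeR adjusted p under 0.05, open points otherwise and a black bar at the list median. The V-ATPase median is -0.429 in Huh7 and -0.067 in Hep3B under TMM scaling, the second of which is 0.123 with library totals, where the median of all genes is 0.203.

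The genes whose levels were most like those of CTSL over the 12 libraries, by Pearson correlation of log2 CPM among 18570 genes, were RNF10, ZFAND5 and CCN2 (0.999, 0.998 and 0.998). The libraries fall into 4 groups, so such a value mostly compares group means, and no test was made. CCN2, which encodes a matricellular growth factor, was at -2.15 in Huh7 and -0.11 in Hep3B, close to the log2 changes of CTSL. RNF10 and ZFAND5 were at -0.74 and -1.20 in Huh7 and at 0.02 and 0.07 in Hep3B. Set beside the promoter sequences, the members with E-boxes had Huh7 log2 changes of -1.0 (CTSD), -0.35 (CTSA) and 0.01 (LAMP1) and Hep3B changes of -0.92, -0.30 and -0.35. The members without one ran from -2.07 (CTSL) to 0.57 (CTSC) in Huh7 and from -0.61 (CTSH) to 0.06 (CTSL) in Hep3B.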

How the data were processed

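Messenger RNA of 12 libraries was analysed. Per the labels' protocols, an RNAfast-2000 kit was used for extraction, and 1.3 µg of total RNA per sample entered a SMARTER library kit. Per the submitters' processing notes the build was GRCh38.p14; no source used here names the aligner, counter, annotation or strand setting. Per the file headers, the authors deposited an estimated count and a TPM per gene and library, with a log2 fold change and an adjusted p-value per line. The estimated counts carry no normalization, since library sums differ. TPM were used for levels, sums, shares and ratios, also between knockdown and control, and entered no test. Other columns of sample values numbered 0.

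Counts were rounded, filtered by filterByExpr, scaled by TMM and tested in edgeR 4.0.16 (R 4.3.3) by its quasi-likelihood F test with robust fitting, the 6 libraries of a line alone, or all 12 for the interaction and the control difference. P-values were adjusted by Benjamini-Hochberg over all genes tested, with a threshold of 0.05. SE is the log2 change over the root of F and is approximate. Log2 CPM used a prior count of 2. The steps were tested on simulated data in which few genes changed, as many up as down. The choice of scaling was thus not tested there. Alternatives were DESeq2 1.42.0, its size factors, library totals, no filter, limma-voom (limma 3.58.1), an adjusted p of 0.01, a replicate block, 1 fit of all libraries and leaving out each library. No replicate pair was identical and no library was left out.

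The members, gene lists and motifs were chosen with earlier results of these data known. Of each list up to 2 genes per line and direction were named, by the smallest adjusted p among called genes; levels in the other line, where not called, are given for comparison.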

Additional observations from a re-analysis of the deposited data

Results flagged for a closer look

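By the interaction test of edgeR, the knockdown response of 6 of 10 members differed between the lines, where 47.1% of 18570 genes passed. Values are the log2 change in Hep3B minus that in Huh7. CTSL differed by 2.13, with all 3 Huh7 knockdown libraries below the controls and overlapping groups in Hep3B. CTSH differed by -1.02, with the knockdown libraries all higher in Huh7 and all lower in Hep3B. CTSC differed by -0.53 and LAMP1 by -0.36, each with separate groups in 1 line and overlapping groups in the other. CTSS and CTSZ differed by -0.36 and -0.25, and both calls were lost when single libraries were left out.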

How the results depend on the processing

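Over the members, 650 values were recomputed, of which 609 kept their direction and their side of the threshold, 28 lost their call, 5 gained one and 8 changed sign. None of the 8 was past the threshold by edgeR in either setting. In Huh7, CTSZ was at 0.0881 with library totals and at 0.002 without the low-count filter, and from -0.0488 to 0.0171 when single libraries were left out. LAMP1 in Huh7 then ranged from -0.0023 to 0.0383, and in Hep3B CTSC ranged from -0.0053 to 0.0467 and CTSS from -0.0118 to 0.0697. The Hep3B count of genes called fell from 6488 to 4206 at an adjusted p of 0.01, where fewer pass by construction. Leaving out a library moved the count of members called between 7 and 8 in Huh7, 6 and 7 in Hep3B and 4 and 6 for the interaction. The counts of all genes called then ran from 9722 to 10508, from 4905 to 6513 and from 8150 to 8948. Replicate numbers share only a number: deviations of same-numbered libraries correlated from -0.0948 to 0.0947, and not every library correlated best with its own number. With a replicate block 7 Huh7 and 7 Hep3B members were called, and LAMP2 in Huh7 was at -0.13 (adjusted p = 0.0555 by edgeR). In Huh7 LAMP2 was also not called without the low-count filter (-0.115, adjusted p = 0.101) or in 1 fit of all libraries (-0.13, adjusted p = 0.0741). The cause was not tested.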

Other observations

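A pair of the transcription factor genes on the lists was chosen after their values were seen, because their levels differ between the lines, so the p-values beside them describe these libraries and support no pattern. TFEB was at 4.51 ± 0.52 CPM in Huh7 controls and at 48.4 ± 0.96 CPM in Hep3B controls (mean ± SD, n = 3), a log2 difference of 3.45 ± 0.12 in the fit of all libraries (edgeR adjusted p = 4.54e-14). TFE3 was at 210 ± 5.21 and 37.5 ± 1.42 CPM, a log2 difference of -2.46 ± 0.06 (edgeR adjusted p = 3.72e-16). After knockdown TFEB fell in Hep3B to 31.7 ± 2.76 CPM (-0.61 ± 0.07) and was at 3.57 ± 0.83 CPM in Huh7 (-0.34 ± 0.18, edgeR adjusted p = 0.109). TFE3 fell in Huh7 to 92.8 ± 5.54 CPM (-1.18 ± 0.05). In Hep3B TFE3 passed as lower under TMM (-0.19 ± 0.07, edgeR adjusted p = 0.0429) but not with library totals (edgeR adjusted p = 0.995).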
